A study of Mus musculus with 2 samples.

Results

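The state of retinal glia was followed through 10 genes, of 32285 listed, in single-cell RNA libraries of mouse retina. These are Gfap, Vim, Nes, Cd44, Tnfaip6, Adamts1, Adamts5, Glul, Aqp4 and Kcnj10, and they were listed by name as genes of glial reactivity and homeostasis, with earlier results of these data known. Adamts1, Tnfaip6 and Adamts5 are also among the 10 leading genes of the Müller cluster, so the count of genes that moved is no independent evidence. Both libraries came from mice of 6 to 9 weeks, labelled WT, which according to the methods of the study carried 2 floxed Tgfbr2 alleles and counted as functionally wildtype, with the L450 variant of Rpe65 and a Balb-C/CD1 background. The control library was made from retinae of mice held in complete darkness for 18 h, and the light damage library from mice that after the same 18 h received 30 min of white light at 5000 lx and then 6 h of recovery in dim light. Each library was a pool of retinae from 3 to 5 mice, and with 1 library per condition no p-value is given. All intervals are 95% intervals that cover counting error only, not how mice or libraries vary. Those of CPM, of ratios and of unspliced shares rest on summed UMIs and also leave out how droplets of a library vary.

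Müller glia are the radial glia that span the retina. In the resting state they take up glutamate and turn it into glutamine, and they carry potassium and water away from active neurons through channels in their end feet. After injury they become reactive, a state known for more intermediate filament protein, for changes in the surrounding hyaluronan matrix and for a loss of the resting functions. Gfap, Vim and Nes encode intermediate filament proteins, Cd44 the cell surface receptor for hyaluronan, and Tnfaip6 a secreted protein that binds hyaluronan and cross-links it. Adamts1 and Adamts5 encode secreted metalloproteinases that cut matrix proteoglycans. Glul encodes glutamine synthetase, Aqp4 the water channel of the end feet and Kcnj10 the inward rectifying potassium channel Kir4.1.

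Müller droplets were recognized from UMIs (unique molecular identifiers, each standing for 1 captured RNA molecule) of Slc1a3, Gpr37, Abca8a, Ptn and Dkk3, none of which is among the 10 genes. A droplet was called Müller when it fell into the Müller cluster and held UMIs of at least 3 of these 5 markers. This gave 32 of 3669 kept control droplets and 31 of 5593 kept light damage droplets, and picking all droplets with 3 of 5 markers without any clustering gave the same 32 and 31. The other droplets of the cluster, 19 control and 64 light damage ones, held UMIs of fewer than 3 markers and were kept apart. Spliced and ambiguous UMIs were added up, and CPM are these UMIs per 1000000 UMIs of the same class and library. Because each molecule is tagged at its 3′ end, CPM of a gene were compared between groups and not between genes.

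The libraries differed in ways that go with the treatment. Control Müller droplets summed to 103306 UMIs with a median of 1566.5 per droplet (751 to 16766), and light damage Müller droplets to 486012 UMIs with a median of 11372 (2541 to 133500). A single light damage droplet held 133500 UMIs, 27.5% of its class, together with UMIs of 10 of 10 rod and 7 of 8 cone markers, so the values without it are given as well. Over all barcodes the control library had 7013 UMIs of Xist and 804 of 4 Y-linked genes, whereas the light damage library had 5 and 13307, and the sex of the pools and the treatment cannot be told apart. Only 7 barcodes were shared between the kept droplets of the libraries. Summed marker levels in Müller droplets were 7763 CPM in control and 2969 CPM in light damage droplets, and each of the 5 markers was lower after light damage, from Slc1a3 (1607 to 1012 CPM) to Gpr37 (1258 to 101 CPM). Of 5 markers of astrocytes, the glia of the nerve fibre layer, Pax2 and Slc39a12 were at 0 UMIs in both libraries, and the list summed to 106 and 126 CPM. Aldh1l1 had 1 and 18 UMIs (9.7 and 37.0 CPM), in 1 control and 11 light damage droplets. S100b had 0 and 3 UMIs and Pla2g7 10 and 40 (96.8 and 82.3 CPM). Microglial markers summed to 2 and 3 UMIs. Endothelial markers summed to 1549 and 1337 CPM, nearly all from Flt1 and Kdr, while Cdh5, Egfl7 and Esam were at 0 in both. Of 6 pericyte markers Acta2 was at 0 in both, and the list summed to 552 and 55.6 CPM. Markers of rods were higher in light damage Müller droplets (15788 and 29580 CPM). So were those of cones (0 and 510 UMIs), with all of 8 at 0 in the control and Cnga3 in both, but the 510 UMIs lay in 4 of 31 droplets. Markers of the retinal pigment epithelium, RPE, rose from 10 to 283 UMIs, with Lrat and Best1 at 0 in both. Of these RPE marker UMIs 6 and 257 were of Trf, while Rpe65 had 1 and 0, Ttr 3 and 16, Rgr 0 and 6 and Rdh5 0 and 4. The share of free RNA estimated from rod genes was 14.2% in control and 33.7% in light damage Müller droplets, and 11.2% in the latter without the droplet of 133500 UMIs. The part of these in the results below was not tested.

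For a pair of members that had almost no UMIs in control Müller droplets, the promoter is shown where it holds a motif of a factor family known from injured glia. The stretches were taken from RefSeq on GRCm38.p6, in which 8 of the 10 genes were matched. Capitals mark a STAT motif (TTCNNNGAA) and an AP-1 motif (TGANTCA), both of which read alike on either strand, and which do not overlap here. Gfap is shown from position -110 to 10 relative to the RefSeq start, on the minus strand of chr11:102897191-102897310. Tnfaip6 is shown from position -230 to -111, on the plus strand of chr2:52037883-52038002.
Gfap: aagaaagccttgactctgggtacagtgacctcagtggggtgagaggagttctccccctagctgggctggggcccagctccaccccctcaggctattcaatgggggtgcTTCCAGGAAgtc
Tnfaip6: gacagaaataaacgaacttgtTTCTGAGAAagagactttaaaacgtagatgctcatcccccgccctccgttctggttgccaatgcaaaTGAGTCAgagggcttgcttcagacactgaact
In windows from 250 bases before to 50 after the start, 2 of the 8 matched genes held the STAT motif and 1 the AP-1 motif. Among all 32851 promoters of the table the shares were 8.30% and 7.81%. These matches describe letters only, and no binding was measured.

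Reactivity and matrix genes were higher in Müller droplets of the light damage library and homeostasis genes lower. By a call of more than 2-fold, 7 of the 10 genes were higher and 3 lower, where 23.6% of all 5690 genes with at least 20 UMIs were called higher and 14.3% lower. Of the 7, Gfap, Nes and Tnfaip6 had at most 1 control UMI and reached 20 UMIs only through the light damage library. The median log2 ratio over those genes was 0.14, and it was -0.38 over the 846 genes with at least 20 UMIs in each library. The 3 falls depended on the scale. Light damage Müller droplets held 4.86 times as many UMIs per droplet as control ones, a shift of 2.28 on the log2 scale. In UMIs per droplet none of the 10 genes was lower by more than 2-fold, and the share of all genes called on that scale was not counted. Fewer molecules of a gene and more molecules of all others in a droplet cannot be told apart in CPM, so both scales are given below.

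**Figure D1:**
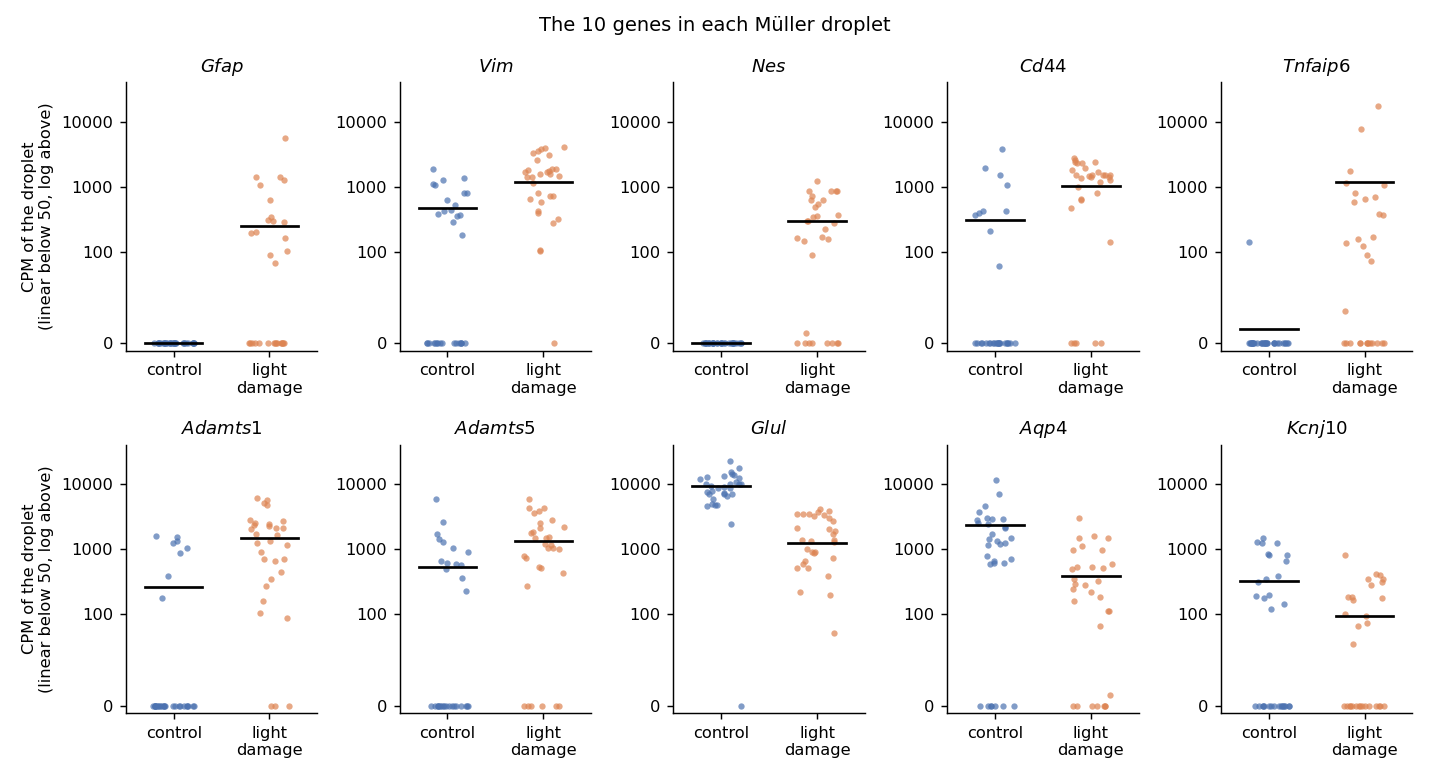
CPM of the 10 genes in each Müller droplet (points, 32 control and 31 light damage droplets) on an axis that is linear below 50 and logarithmic above, with the CPM of the summed droplets as a black line. No control droplet has a UMI of Gfap or Nes, and all 31 light damage droplets lie under the control median of Glul, 8885 CPM.

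Among the filament genes, Gfap (ENSMUSG00000020932, chromosome 11 from 102887336 to 102900912, GRCm38) had 0 UMIs in control and 122 UMIs in light damage Müller droplets, 251 CPM (208 to 299.7). It was 8.64-fold higher against a floor of 3 UMIs over the control droplets, and the interval of its log2 ratio ran from 2.79 upward. The UMIs were uneven: 16 of 31 light damage droplets had any, and a single droplet held 41 of the 122. In the 19 control droplets of the same cluster with fewer than 3 markers there were 5 Gfap UMIs among 33369, all 5 in 1 droplet, so the gene was not absent from the control cluster. With the whole cluster taken as Müller the log2 ratio of Gfap was 2.25, with 0.5 UMIs added to each count.

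Vim (ENSMUSG00000026728, chromosome 2 from 13573927 to 13582826), the filament of resting Müller glia as well, had 49 UMIs in control and 579 in light damage Müller droplets. Its level went from 474 CPM (351 to 627) to 1191 CPM (1096 to 1292), 2.51-fold, a log2 ratio of 1.33 (0.91 to 1.78). The lower end of that interval lies under 2-fold. Droplets of the libraries overlapped, since 9 of 31 light damage droplets lay above the highest control droplet, but 30 of 31 had a Vim UMI against 16 of 32 control droplets. Nes (ENSMUSG00000004891, chromosome 3 from 87971078 to 87980451), the filament of neural progenitors, had 0 UMIs in control and 142 in light damage Müller droplets, 292 CPM (246 to 344). This was 10.1-fold higher against the floor of 3 UMIs, with a log2 interval from 3.01 upward. The UMIs were shared by 23 of 31 droplets, the highest with 20.

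Of the hyaluronan genes, Cd44 (ENSMUSG00000005087, chromosome 2 from 102811141 to 102901665) had 32 UMIs in control and 496 in light damage Müller droplets. Its level went from 309.8 CPM (212 to 437) to 1021 CPM (933 to 1114), a log2 ratio of 1.72 (1.20 to 2.28). A single control droplet held 16 of the 32 control UMIs, and that droplet also held 16 of the 27 control UMIs of Adamts1. With the droplet of most UMIs left out in each library the ratio was 2.45. Only 10 of 32 control droplets but 26 of 31 light damage droplets had a Cd44 UMI. Tnfaip6 (ENSMUSG00000053475, chromosome 2 from 52038009 to 52056686) had 1 UMI in control and 575 in light damage Müller droplets, 9.68 CPM (0.25 to 53.9) against 1183 CPM (1088 to 1284). The log2 ratio was 6.93 (4.45 to 12.24). A single droplet of 23272 UMIs held 400 of the 575 Tnfaip6 UMIs, and the next one 81. The other 30 light damage droplets still had 175 UMIs, 378 CPM, and 18 of 31 droplets had at least 1.

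The proteoglycan-cutting Adamts1 (ENSMUSG00000022893, chromosome 16 from 85793827 to 85803113) had 27 UMIs in control and 733 in light damage Müller droplets. Its level was 261 CPM (172 to 380.3) in the control and 1508 CPM (1401 to 1621) after light damage, 5.77-fold, a log2 ratio of 2.53 (1.98 to 3.14). Of the light damage droplets 15 of 31 lay above the highest control droplet. Adamts5 (ENSMUSG00000022894, chromosome 16 from 85856173 to 85901828), its neighbour on the same strand, had 55 and 655 UMIs. The level of Adamts5 went from 532 CPM (401 to 693) to 1348 CPM (1246 to 1455), a log2 ratio of 1.34 (0.94 to 1.76), and its interval also reaches under 2-fold. No light damage droplet was above the highest control droplet for Adamts5, although 25 of 31 had a UMI against 14 of 32 in the control.

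Of the homeostasis genes, Glul (ENSMUSG00000026473, chromosome 1 from 153899944 to 153909723) had 967 UMIs in control and 616 in light damage Müller droplets. Glutamine synthetase RNA thus went from 9361 CPM (8779.8 to 9969.6) to 1267 CPM (1169 to 1372), 7.39-fold lower, a log2 ratio of -2.88 (-3.03 to -2.74). Every one of the 31 light damage droplets was below the control median of 8885 CPM, and the light damage median was 1377 CPM. In UMIs per droplet the same counts came to 30.2 and 19.9, a log2 ratio of -0.60 (-0.75 to -0.46), so that the direction held but not the size.

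Aqp4 (ENSMUSG00000024411, chromosome 18 from 15389496 to 15410982) had 241 and 189 UMIs. The water channel went from 2333 CPM (2048 to 2647) to 389 CPM (335 to 448), a log2 ratio of -2.58 (-2.87 to -2.30), with 27 of 31 light damage droplets below the control median. In UMIs per droplet its ratio was -0.30 (-0.59 to -0.02). Kcnj10 (ENSMUSG00000044708, chromosome 1 from 172341210 to 172374085) had only 34 and 46 UMIs, 329 CPM (228 to 460) in the control and 94.6 CPM (69.3 to 126) after light damage. Its log2 ratio was -1.80 (-2.47 to -1.11) in CPM but 0.48 (-0.19 to 1.17) in UMIs per droplet, so the direction of Kcnj10 turned with the scale. About equal shares of droplets had a UMI of it, 16 of 32 and 16 of 31.

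**Figure D2:**
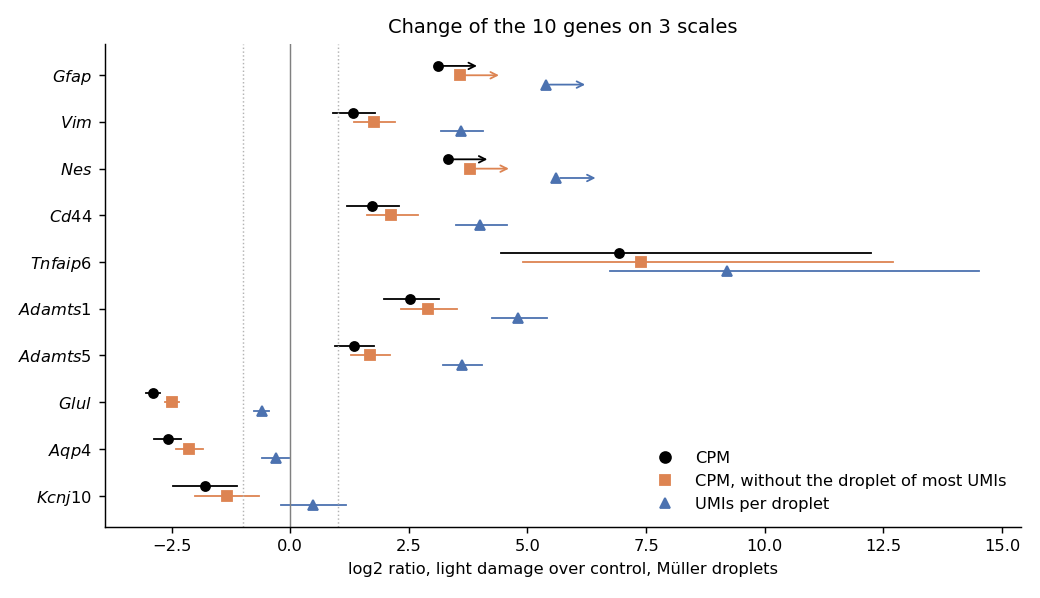
Log2 ratio of light damage over control in Müller droplets for each gene. Black circles are CPM, orange squares CPM without the light damage droplet of 133500 UMIs and blue triangles UMIs per droplet. Lines are 95% intervals of counting error, and dotted lines mark 2-fold. Arrows mark genes with 0 control UMIs, whose point is the ratio against a floor of 3 UMIs. The 7 reactivity and matrix genes lie right of 0 on all 3 scales, whereas Kcnj10 changes side in UMIs per droplet.

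Leaving out the light damage droplet of 133500 UMIs left 30 droplets with 352512 UMIs and moved all 10 ratios up, by 0.33 for Adamts5 to 0.46 for Gfap and Kcnj10. The log2 ratio was then 1.76 (1.33 to 2.21) for Vim, 2.13 (1.61 to 2.69) for Cd44, 2.90 (2.34 to 3.51) for Adamts1 and 1.67 (1.27 to 2.10) for Adamts5. For the homeostasis genes it was -2.48 (-2.63 to -2.33) for Glul, -2.13 (-2.41 to -1.85) for Aqp4 and -1.33 (-2.01 to -0.65) for Kcnj10. The same droplet held 0 of the Gfap, 1 of the Nes, 1 of the Aqp4 and 57 of the Adamts5 UMIs. Among droplets of at least 3000 UMIs, 9 control and 30 light damage ones, the ratio was -2.86 for Glul, -2.73 for Aqp4, -1.81 for Kcnj10, 1.104 for Vim and 2.66 for Adamts1.

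How many Müller droplets carried a gene was compared at a common depth, with each droplet thinned to 1500 UMIs. All 31 light damage droplets but only 16 of 32 control droplets were deep enough. These intervals cover counting error over droplets of 1 library and limit droplets with a UMI, not cells that express the gene. Gfap was then found in 0 of 16 control droplets (up to 20.6%) and in 6 of 31 light damage droplets, 19.4% (7.45 to 37.5%). Nes was in 0 of 16 and 13 of 31 (41.9%, 24.5 to 60.9%), and Tnfaip6 in 0 of 16 and 9 of 31 (29.0%, 14.2 to 48.0%). The intervals of both libraries overlapped for Gfap and Tnfaip6 and not for Nes, and the differences in share were not tested. Adamts1 was in 4 of 16 (7.27 to 52.4%) of the control and 77.4% (58.9 to 90.4%) of the light damage droplets, and Cd44 in 31.2% (11.02 to 58.7%) and 77.4% (58.9 to 90.4%). Glul was found in 100% and 83.9% of droplets. Aqp4 was at 81.2% (54.4 to 96.0%) and 35.5% (19.2 to 54.6%) and Kcnj10 was at 31.2% (11.02 to 58.7%) and 9.68% (2.04 to 25.8%), with overlapping intervals for both. In rods, which should lack these genes, the shares at the same depth were at most 1.09% for all genes but Glul, which was found in 4.62% of control and 5.43% of light damage rods. Without thinning Gfap was found in 51.6% and Nes in 74.2% of light damage Müller droplets.

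Before thinning, reactivity genes were found together in single light damage droplets. Of the 7 reactivity and matrix genes, a control Müller droplet held a median of 1 (0 to 4) and a light damage droplet a median of 6 (1 to 7). At least 5 of the 7 were found in 25 of 31 light damage and 0 of 32 control droplets. Gfap and Nes had 0 UMIs in all 32 control droplets, and Tnfaip6 had 0 in 31 of them. Nearly every control droplet therefore could not reach 5, and the contrast is a description and no support. These counts were not thinned, and the median depth was 11372 UMIs in light damage and 1566.5 in control droplets. Deeper droplets show more genes, and the part of depth in this contrast was not tested. The 3 homeostasis genes were found with a median of 2 in both libraries, and all 3 together in 15 of 32 control and 14 of 31 light damage droplets. Within the 31 light damage droplets, Spearman's rho of the CPM was 0.72 between Cd44 and Adamts5, 0.66 between Adamts1 and Adamts5, 0.63 between Tnfaip6 and Adamts5 and 0.60 between Aqp4 and Kcnj10. For Gfap rho ranged from -0.14 with Adamts1 to 0.30 with Glul. These droplets share 1 library and differ in depth, so the coefficients are descriptions.

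**Figure D3:**
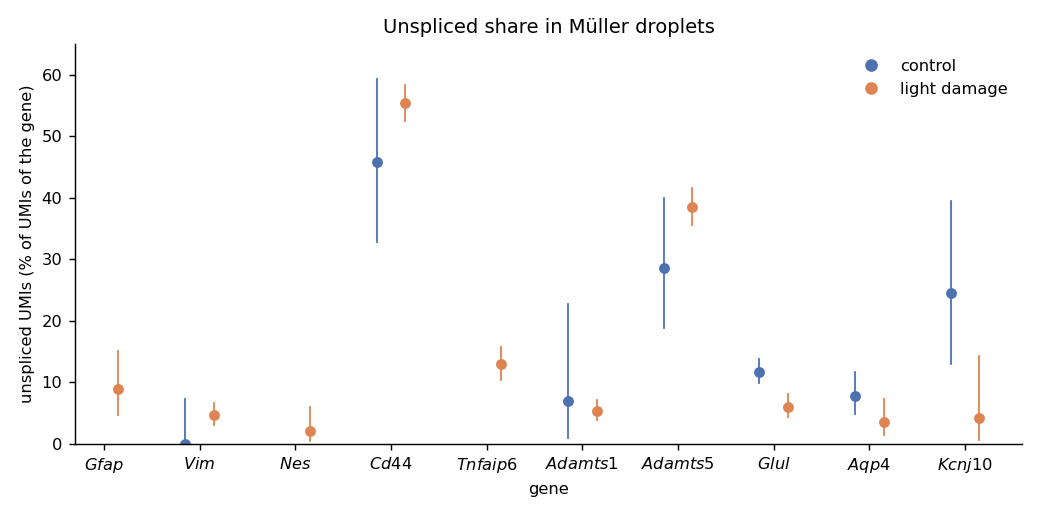
Share of unspliced UMIs among all UMIs of each gene in Müller droplets of the control (blue) and the light damage library (orange), with 95% exact binomial intervals, shown where a gene had at least 10 UMIs. Cd44 and Adamts5 have the highest shares, and the share of Glul was lower after light damage, 5.95% against 11.7%.

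Unspliced UMIs, which hold intron sequence, were counted apart. Over all genes they made up 54.1% of UMIs in control and 46.0% in light damage Müller droplets. After light damage Gfap had 12 unspliced UMIs, 8.96% (4.71 to 15.1%), Tnfaip6 12.9% (10.4 to 15.7%) and Nes 2.07% (0.43 to 5.93%). Cd44, the gene with the longest span here, had 616 unspliced UMIs in the light damage library, a share of 55.4% (52.4 to 58.3%), against 27 or 45.8% (32.7 to 59.2%) in the control. For Adamts5 the shares were 38.6% (35.6 to 41.6%) after light damage and 28.6% (18.8 to 40.0%) in the control, with intervals that overlap. Unspliced UMIs of Glul numbered 128 in the control and 39 after light damage, and their share was 11.7% (9.85 to 13.7%) and 5.95% (4.27 to 8.05%). Kcnj10 went from 24.4% (12.9 to 39.5%) to 4.17% (0.51 to 14.3%), on 11 and 2 unspliced UMIs. With unspliced UMIs added to the counts the log2 ratio was 2.22 for Cd44, 1.78 for Adamts5, -2.74 for Glul and -1.91 for Kcnj10.

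The genes were next set against the other cells of the same library. All 7 genes with at least 20 UMIs in control were higher in Müller than in all other droplets by more than 2-fold. So were all 10 after light damage, beside 36.0% and 18.1% of all genes called. In all other control droplets Cd44, Aqp4, Kcnj10 and Adamts1 had 4, 14, 12 and 15 UMIs. After light damage Aqp4 and Tnfaip6 had 16 and 14 there. These genes reached 20 UMIs only through Müller droplets, where they are high, so the counts are descriptions and no support. Droplets were clustered without the 10 genes, but a cluster set against the rest is a description. In the control the log2 ratio to all other droplets ranged from 5.26 (4.76 to 5.74) for Vim to 10.89 (10.12 to 11.79) for Aqp4. After light damage it ranged from 2.77 (2.64 to 2.89) for Glul to 10.86 (10.10 to 11.74) for Tnfaip6. Against the single classes, 9 of 10 genes passed after light damage both against the RPE and against microglia, the exceptions being Glul and Nes. The same limit holds there, since most of these genes reached 20 UMIs through the Müller droplets alone.

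**Figure D4:**
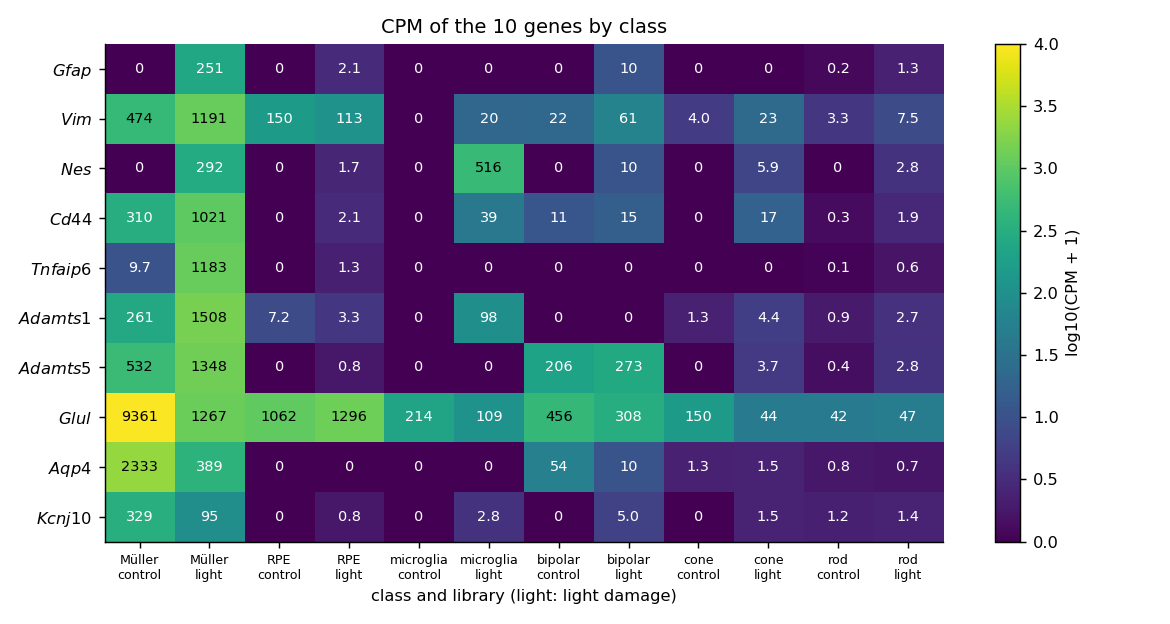
CPM of each gene (rows) in 6 cell classes of the control and the light damage library (columns), with colour on the scale log10(CPM + 1) and the CPM written in each cell, to be compared along a row. Glul is shared with the RPE, Nes after light damage with microglia and Adamts5 with bipolar cells.

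Nes after light damage was not particular to Müller glia. In microglia, the immune cells of the retina, Nes had 0 UMIs among 32726 in 12 control droplets. In 40 light damage droplets it had 184 UMIs, 516 CPM (444 to 596). This was 5.63-fold higher against the floor of 3 UMIs, with a log2 interval from 2.18 upward. These UMIs were spread over 22 of 40 droplets with at most 37 in a single one, and microglia stood above Müller droplets, with a log2 ratio of Müller to microglia of -0.82 (-1.15 to -0.50). Microglia of the light damage library had 0 UMIs of Gfap, Aqp4, Tnfaip6 and Adamts5 and 1 of Kcnj10. They also had 14 UMIs of Cd44 (39.2 CPM) in 5 of 40 droplets, 7 of Vim in 2 droplets and 39 of Glul in 17. The source of these UMIs was not tested. In barcodes under 50 UMIs Nes stood at 9.8 CPM. Adamts1 had 35 UMIs in light damage microglia, 98.1 CPM (68.3 to 136), in 10 of 40 droplets, and 0 in the 12 control droplets. This was only 1.07-fold higher against the floor, with a log2 interval from -0.28 upward, which takes in no change. Of the 3 genes with at least 20 UMIs in microglia, Nes and Adamts1 were called higher by more than 2-fold and Glul lower, beside 35.7% and 16.9% of all genes. Nes and Adamts1 reached that number through the light damage library alone. For Glul the control count was 7 UMIs and the log2 ratio -0.97 had an interval from -2.15 to 0.44. The free RNA share estimated in control microglia was 57.6%.

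Glul and Vim were also measured in the RPE, the pigmented layer behind the photoreceptors, where they alone of the 10 genes had at least 20 UMIs and 0 of these 2 passed 2-fold, beside 12.2% of genes called higher and 6.14% lower. Glul had 737 UMIs in 159 control droplets, 1062 CPM (986 to 1141), and 3104 UMIs in 301 light damage droplets, 1296 CPM (1251 to 1342). Its log2 ratio was 0.29 (0.17 to 0.41), against -2.88 in Müller droplets. With all Müller droplets counted, the RPE and Müller levels of Glul after light damage lay close together. The log2 ratio of Müller to RPE was -0.03 (-0.16 to 0.09), where the control ratio was 3.14 (3.00 to 3.28). Without the light damage droplet of 133500 UMIs the Müller level was 1674 CPM (1541 to 1814), above the RPE interval. Vim had 149.8 CPM (122 to 182) in control and 113 CPM (99.7 to 127) in light damage RPE, a log2 ratio of -0.41 (-0.74 to -0.07). The RPE droplets fell into 2 clusters, of which cluster 9 held light damage droplets alone. In cluster 8, which held 159 control and 192 light damage droplets, Vim went from 149.8 to 58.8 CPM (46.3 to 73.5) and Glul from 1062 to 1007 CPM (953 to 1064), whereas cluster 9 stood at 176 CPM (152 to 203) for Vim and 1635 CPM (1560.0 to 1712) for Glul.

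In the remaining classes the levels were low. Adamts5 had 19 UMIs in 44 control bipolar droplets, 206 CPM (124 to 322), and 54 UMIs in 18 light damage bipolar droplets, 273 CPM (205 to 356), a log2 ratio of 0.40 (-0.38 to 1.24). These UMIs were spread over 13 and 12 droplets. Of the 3 genes with at least 20 UMIs in cones, Vim and Cd44 were called higher and Glul lower, beside 17.9% and 4.77% of genes. Cones had 31 Vim UMIs after light damage against 3 in the control, of which a single droplet held 19. Cd44 had 23 UMIs against 0, 17.0 CPM, and so reached 20 UMIs through the light damage library alone, where barcodes under 50 UMIs stood at 16.1 CPM. Of 112 Glul UMIs in control cones a single droplet held 78, and without it and the highest light damage droplet the log2 ratio went from -1.78 (-2.26 to -1.31) to -0.20. In rods every one of the 10 genes stood lower after light damage than in barcodes under 50 UMIs of the same library, which hold free RNA. For Vim these levels were 7.54 CPM in rods and 77.6 CPM in such barcodes, and for Glul 47.1 and 188 CPM. Control rods had 2 UMIs of Gfap (0.20 CPM), 3 of Cd44 (0.31 CPM), 1 of Tnfaip6 (0.10 CPM) and 4 of Adamts5 (0.41 CPM). Such barcodes of the control library had 0 among 1259397 UMIs for each of these genes. The interval of that 0 reaches 2.93 CPM, so neither level can be called higher. Nes had 0 UMIs in control and 50 in light damage rods, 9.28-fold higher against the floor of 3 UMIs, with a log2 interval from 2.86 upward. Light damage rods stood at 2.84 CPM of Nes, against 9.8 CPM in barcodes under 50 UMIs of that library. The part of free RNA in the rod values was not tested.

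Over all barcodes, whatever cell they came from, the libraries differed in the same direction for the reactivity genes. The log2 ratio of light damage over control was 2.89 (2.28 to 3.56) for Gfap, with 24 and 261 UMIs, and 1.70 (1.55 to 1.86) for Vim. It was 3.17 (2.78 to 3.59) for Cd44, 3.23 (2.89 to 3.58) for Adamts1 and 2.11 (1.86 to 2.37) for Adamts5. Nes went from 1 to 599 UMIs and Tnfaip6 from 2 to 642. The homeostasis genes differed less, with -0.17 (-0.22 to -0.12) for Glul, -1.19 (-1.42 to -0.97) for Aqp4 and -0.37 (-0.77 to 0.03) for Kcnj10. In whole libraries, fewer cells of a type and less RNA per cell cannot be told apart.

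Other genes of glial reactivity were read from lists used in studies of reactive astrocytes, in the same Müller droplets. Genes without control UMIs could reach the minimum of 20 UMIs only through the deeper light damage library, where they are high, so the counts of higher genes are descriptions and no support. Of 10 pan-reactive genes 8 had at least 20 UMIs, and 7 of these were called higher and 0 lower, beside 23.6% and 14.3% of all genes, but 5 of the 7 had 0 control UMIs. The largest were Lcn2, an iron-binding acute-phase protein, with 0 and 315 UMIs, and Timp1, an inhibitor of matrix metalloproteinases, with 0 and 117 UMIs. Against the floor of 3 UMIs they were 22.3-fold and 8.29-fold higher, with log2 intervals from 4.17 and 2.73 upward. Serpina3n had 77 and Steap4 44 UMIs, each against 0. Lcn2 was carried by 5 of 31 droplets, with 129 UMIs in a single one. Of 12 ischemia-type genes 5 were tested, each with at most 3 control UMIs, so that these could hardly be called other than higher. They include the cytokine Clcf1 (1 and 74 UMIs, log2 ratio 3.98, 1.45 to 9.30), S100a10 (3.10, 1.52 to 5.40), Ptx3 and Emp1, the last with 42 of 56 UMIs in a single droplet. Of 11 LPS-type genes only 3 were tested, and 2 were called higher. The interferon-induced Gbp2 had 0 and 125 UMIs, 8.86-fold higher against the floor, with a log2 interval from 2.83 upward. The class I histocompatibility gene H2-D1 had a log2 ratio of 1.69 (0.85 to 2.67). The third, Psmb8, had a ratio of 0.43 (-1.34 to 2.83).

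Of 18 other Müller homeostasis genes 17 were tested, and 9 were lower by more than 2-fold and 0 higher, beside 14.3% and 23.6% of all genes. Their median log2 ratio was -1.34. It was 0.14 over all genes and -0.38 over the 846 genes with at least 20 UMIs in each library. Among the lower ones were the carbonic anhydrase Car14 (-2.78, -3.39 to -2.19) and the transcription regulator Id3 (-1.78, -2.23 to -1.32). Of 10 genes of the dystrophin complex, which anchors Aqp4 and Kcnj10 at the end feet, 6 were tested. Of these 1 was lower, Utrn (-1.56, -2.78 to -0.25), and 1 higher, Lama5 (1.35, -0.66 to 4.48), beside the same 14.3% and 23.6% of all genes. Dtna stood at -0.85 (-1.52 to -0.14). Among 4 tested partners of intermediate filaments Lmna (2.29, 0.88 to 4.20) and the cross-linker Plec (1.41, -0.04 to 3.34) were called higher, beside 23.6% of all genes. Ezr (0.94) and Lmnb1 (0.47) were not. Of 21 genes of the hyaluronan and proteoglycan matrix only Timp3 was tested, at -0.66 (-1.08 to -0.24), and the hyaluronan synthases Has2 and Has3, named after their values were seen, had 0 UMIs in both libraries. Over all 7 lists, with 8, 5, 3, 17, 6, 4 and 1 genes tested, 17 genes were higher and 10 lower in CPM. Of all genes 23.6% and 14.3% were called. In UMIs per droplet 34 were higher and 0 lower, but the shift of 2.28 in depth raises every gene there. The share of all genes called on that scale was not counted.

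**Figure D5:**
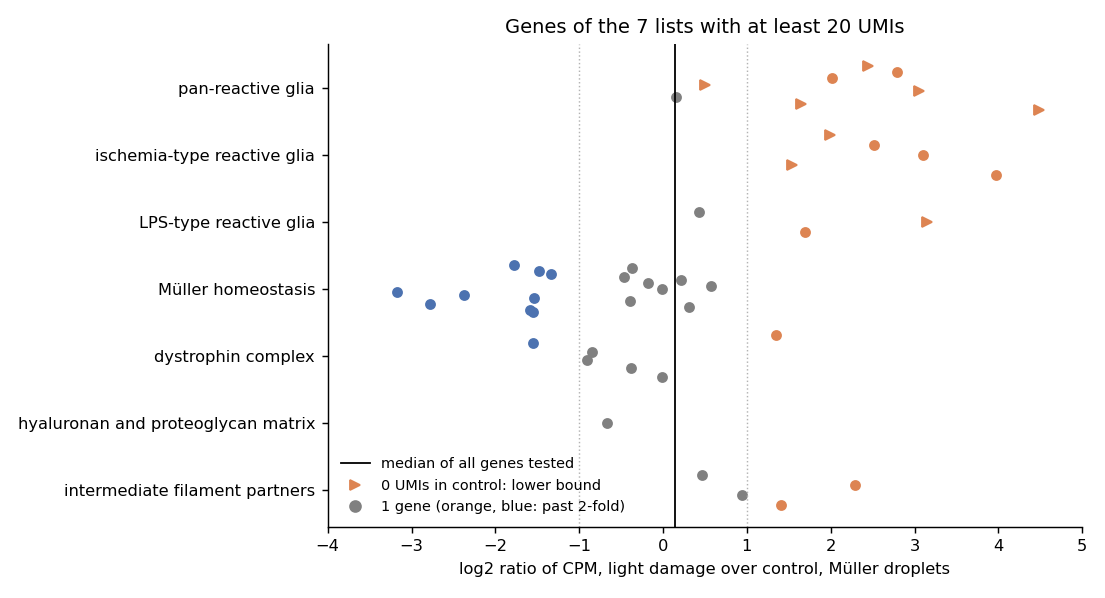
Log2 ratio of CPM in Müller droplets for each gene of the 7 lists with at least 20 UMIs (circles). Triangles, labelled lower bound, mark genes with 0 control UMIs and stand at the ratio against a floor of 3 UMIs. A line shows the median of all genes tested, 0.14, and dotted lines mark 2-fold. The 5 ischemia-type genes shown, each with at most 3 control UMIs, lie right of 2-fold and 9 Müller homeostasis genes left of 2-fold.

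Genes whose levels followed those of the 10 genes over 12 class and library groups were found by Pearson's r of log2(CPM + 10) among 12558 genes. Closest to Gfap were Lif, a cytokine of the interleukin-6 family (0.999), Stc1 (0.998) and Vav3 (0.997), to Nes the chemokine Ccl7 (0.997), and to Tnfaip6 Slc14a1 (0.993) and Clcf1 (0.992). Kcnj10 was followed by Nkd1 (0.998), Rgs6 (0.997) and Mlc1 (0.997), Aqp4 by Lsamp (0.996), Glul by Nfia and Lhx2 (both 0.962) and Adamts5 by Sox2 (0.991). For Vim the closest was Fam19a5 (0.972), for Cd44 Rassf4 (0.984) and for Adamts1 Lncpint (0.989). Gfap and Tnfaip6 stood at 251 and 1183 CPM in light damage Müller droplets. In RPE, rods, cones and microglia of either library they were at most at 2.09 and 1.25 CPM. With 10 added to the CPM such coefficients rest mainly on the Müller groups, and any gene high there alone can score near the top. The 12 groups also share 2 libraries and their depth, so these values describe a pattern only.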

How the data were processed

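Single cells of pooled mouse retinae were captured with 10x Genomics 3′ chemistry. The authors demultiplexed with Cell Ranger 7.0.1, mapped reads with salmon 1.10.1 to spliced transcripts and introns of mm10 and deposited UMI counts from alevin-fry 0.8.1 in blocks of spliced, unspliced and ambiguous UMIs, as whole numbers without normalization or filtering. Their own clusters and cell names were not used here. The libraries held 30605284 (control) and 54413601 (light damage) UMIs. Genes were named and placed with GENCODE vM21 (GRCm38), which held 32235 of 32285 IDs.

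Droplets were kept with at least the inflection point of the rank curve (1464 and 1614 UMIs, here with unspliced UMIs counted, while UMIs per droplet elsewhere leave them out), under 10% mitochondrial UMIs and, as doublets, without the top 0.8% per 1000 droplets by Scrublet score (114 and 276 droplets). Leiden clustering (resolution 1, seed 0) used 2000 variable genes without the 10 genes, 50 components and 15 neighbours. All 13 clusters were named from marker genes with a score of at least 0.3, set after the scores were seen. The demand of 3 of 5 markers within the Müller cluster was added after the cluster, which held 51 control and 95 light damage droplets, had been seen. CPM carry exact Poisson, shares exact binomial (Clopper-Pearson) and ratios exact conditional binomial intervals. A count of 0 gets a floor of 3 UMIs, and a fold against that floor leaves out the counting error of the other library. A call needs a summed count of 20 UMIs and more than 2-fold, with 0.5 UMIs added to each side. Free RNA shares were estimated from rod genes, against barcodes under 50 UMIs. On simulated counts for the Müller comparison (5690 genes, 200 changed) the interval held the true ratio for 97.5% of changed genes, the direction was right for 99.0%, and 9.16% of unchanged genes passed 2-fold. These shares need not hold for the data, where UMIs of some genes gathered in single droplets. Without the droplet of most UMIs of the gene in each library, Cd44 went to 2.45 and Adamts1 to 3.36. Both lie above the upper ends of their intervals, 2.28 and 3.14.

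The members and lists were chosen with earlier results of these data known. By rule, from each list up to 4 tested genes of largest ratio and, for each of the 10 genes, up to 3 of closest pattern were named; some genes that this rule names are not reported here. Alternatives were other limits on UMIs and mitochondrial share, no doublet removal, a resolution of 2, the 10 genes in the clustering, naming without clusters, free RNA subtracted or its droplets left out, unspliced UMIs added, centring, another total and leaving out single droplets. Chosen after the data were seen were the whole cluster, leaving out the droplet of most UMIs or those with 3 endothelial or pericyte markers, UMIs per droplet, mean CPM over droplets and droplets of at least 3000 UMIs. Clustering ran in scanpy 1.11.5 with anndata 0.12.19, igraph 0.11.9, leidenalg 0.10.2 and scikit-learn 1.9.0. Statistics ran in scipy 1.17.1 and numpy 2.4.6 under Python 3.11.15, with tables in pandas 2.3.3 and plots in matplotlib 3.10.9.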

Additional observations from a re-analysis of the deposited data

Results flagged for a closer look

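The direction of 2 genes differed between cell classes under the same contrast of light damage and control; the differences themselves were not tested, since each condition is 1 library. Vim had a log2 ratio of 1.33 in Müller droplets and 2.52 in cones but -0.41 in the RPE. Glul had a log2 ratio of 0.29 in the RPE but -2.88 in Müller droplets and -1.78 in cones. In cones a single droplet held most of the UMIs of each, 19 of 31 for Vim after light damage and 78 of 112 for Glul in the control. In UMIs per droplet the ratio of Vim was 0.46 in the RPE, and that of Glul was 1.15 in the RPE and 0.11 (-0.37 to 0.58) in cones, so on that scale neither the RPE ratio of Vim nor the cone ratio of Glul had the opposite direction. The Müller ratio of Glul stayed below 0, at -0.60.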

How the results depend on the processing

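The 10 genes kept their direction in Müller droplets under the 12 planned and 6 later alternatives, except that Kcnj10 was reversed to 0.48 in UMIs per droplet. On that scale, which the shift of 2.28 in depth raises for every gene, 0 members were lower by more than 2-fold. Of the list genes 34 were higher and 0 lower there, and the share of all genes called was not counted. Over all alternatives the log2 ratio ranged from 1.104 to 3.60 for Vim, 1.48 to 3.98 for Cd44, 2.05 to 4.78 for Adamts1, 1.19 to 3.61 for Adamts5, -3.03 to -0.60 for Glul, -2.80 to -0.30 for Aqp4 and -2.04 to 0.48 for Kcnj10. Without doublet removal, at a resolution of 2 and with the 10 genes in the clustering, 26 light damage droplets were called Müller in place of 31, and Aqp4 was -1.96 and Kcnj10 -1.19. In microglia Glul was reversed to 0.11 without droplets of at least 50% free RNA, 4 members were higher at a minimum of 1000 UMIs, and 0 were lower at that minimum, at a mitochondrial limit of 5%, without those free RNA droplets, after centring and without the droplet of most UMIs. In cones 0 members were higher at a minimum of 1000 UMIs, at a resolution of 2 and with free RNA subtracted, and 0 were lower at a resolution of 2 and without the droplet of most UMIs. The cause was not tested. No paired analysis was possible because each condition is 1 library. Control Müller droplets sum to 103306 UMIs, so a gene at 0 there can still stand at up to 29.0 CPM by the floor of 3 UMIs.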

Other observations

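The droplets of the Müller cluster with UMIs of fewer than 3 markers held more rod RNA than the Müller droplets, with rod markers at 49477 CPM in the control and 41788 CPM in the light damage library against 15788 and 29580 CPM. Their Glul level was 5484 CPM (4718 to 6339) in the control and 877 CPM (756 to 1013) after light damage, and Aqp4 went from 449.5 CPM (252 to 741) to 66.4 CPM (36.3 to 111). Vim stood at 149.8 CPM (48.7 to 349.7) and 498 CPM (407 to 603). Gfap had 5 and 11 UMIs there, 149.8 CPM (48.7 to 349.7) and 52.2 CPM (26.0 to 93.4), and the 5 control UMIs were all in 1 droplet.

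Barcodes under 50 UMIs, which hold free RNA of broken cells, differed between the libraries too. Vim stood at 14.3 CPM (8.5 to 22.6) in the control and 77.6 CPM (67.1 to 89.1) in the light damage library, Adamts1 at 3.2 and 17.6 CPM and Cd44 at 0 and 16.1 CPM, while Aqp4 stood at 5.6 CPM (2.2 to 11.5) and 3.9 CPM (1.9 to 7.2).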
